A study of Mus musculus with 6 samples.

Results

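The fatty acid oxidation and ketone body genes are a set of 31 mouse genes whose products activate fatty acids, carry them into mitochondria, break them down by beta-oxidation, use ketone bodies or regulate these steps. They were listed by name, and for each gene the probe set with the highest mean over the 6 arrays was used, whatever the groups. Of the 31 genes, 30 had a probe set that carried their symbol alone, and all 30 lay above the filter on weak genes, among 10916 genes tested of 18193 measured. Acsl1, which encodes a long-chain acyl-CoA synthetase, has no such probe set and was not analysed here. Expression was measured in whole colon tissue of C57BL/6 mice aged 6 to 8 weeks, taken 24 h after a rectal injection of ethanol that every group received. The groups were GPR41 KO, GPR43 KO and wild type (WT), with 2 arrays each. GPR41, encoded by Ffar3, and GPR43, encoded by Ffar2, are cell surface receptors for the short-chain fatty acids that gut bacteria make. The labels name neither the targeting of the alleles nor whether the arrays of a group came from separate animals, so p-values measure only the spread between these samples, which may be technical. Colon without ethanol was not analysed here.

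Beta-oxidation is a cycle of a first oxidation, a hydration, a second oxidation and a cleavage, and each turn shortens an acyl-CoA and releases acetyl-CoA. Long chains enter mitochondria as carnitine esters, whereas butyrate, the main fuel of the colon epithelium, enters without carnitine and is oxidised by the enzymes for short chains. Ketone bodies are carried in blood, and tissues that use them turn acetoacetate into acetyl-CoA with an enzyme that the liver lacks.

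The signals were MAS5 intensities on a linear scale, already scaled between arrays. The median signal of an array lay between 80.9 and 96.8, and an array's precision is limited by there being 2 per group. The receptor gene Ffar2 checked the GPR43 KO label: in its 2 probe sets, GPR43 KO replicate 2 stood at 16.4% and 9.56% of the WT mean, whereas for the library labelled GPR43 KO replicate 1 the values were 138% and 143%. Counts and calls on GPR43 KO and on the mean of both KO groups are therefore given with and without that library, and so are the values of single members that it moves by over 1.5 times and by more than 0.05 in the mean of both KO groups. No probe set carried the symbol Ffar3, and the label of GPR41 KO therefore has no such check. Ffar2 was above WT in both GPR41 KO arrays, at 1857 and 1933 against 1194 and 1118 in its first probe set. In its second these were 1229 and 1345 against 840 and 757. The library labelled GPR43 KO replicate 1 had 1598 and 1142 in the 2 probe sets. All 15 markers of absorptive colonocytes and all 8 of goblet cells lay above the pseudocount of 18 in every array. The median signal of every array was also above that low bound, so passing it cannot check the colon label.

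When the mean of both KO groups was set against WT, 4 of the 30 members changed: Oxct1, Acads and Acsm3 rose and Eci2 fell. Oxct1 encodes the enzyme that commits acetoacetate to oxidation, Acads the dehydrogenase for butyryl-CoA, Acsm3 a mitochondrial synthetase for medium-chain acyl-CoA, and Eci2 an isomerase for unsaturated chains. Over all genes tested, 6.99% passed this test, 3.2% higher and 3.79% lower, against 13.3% of the members (4 of 30), and this difference in share was not tested. The median log2 difference was 0.07 over the members and 0.01 over all genes tested. Of the 30 log2 differences, 16 were above 0 and 14 below. Leaving out the library labelled GPR43 KO replicate 1, 3 members were called, all higher, against 4.98% of all genes, and the median over the members was 0.14. Without it 1 of the 30 log2 differences turned sign, and 3 moved by over 1.5 times and by more than 0.05: those of Acsf2, Ech1 and Acaa1a. In GPR43 KO against WT, which then rests on 1 KO array, 11 moved as far and 4 turned sign.

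Oxct1 (chr15:4026428-4155344, GRCm38.p6) had signals of 7532 and 8353 in GPR41 KO, 7152 and 7167 in GPR43 KO, and 4991 and 4556 in WT. All 4 KO arrays lay above both WT arrays. On the log2(signal + 18) scale Oxct1 was higher by 0.66 ± 0.10 (SE of the limma fit, adjusted p = 0.00639) in the mean of both KO groups, and by 0.66 with adjusted p = 0.0236 when leaving out the library labelled GPR43 KO replicate 1.

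Acads (chr5:115110299-115119346) had signals of 6164 and 6976 in GPR41 KO, 5754 and 6114 in GPR43 KO, and 3989 and 4235 in WT. Again no KO array reached down to a WT array. The log2 difference was 0.60 ± 0.10 (limma, adjusted p = 0.0111), and it was 0.62 with adjusted p = 0.0288 when leaving out the library labelled GPR43 KO replicate 1. Acads and Oxct1 kept their calls in this comparison whichever array was left out.

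Acsm3 (chr7:119760883-119784896) had signals of 2767 and 2785 in GPR41 KO, 2513 and 3461 in GPR43 KO, and 2111 and 1419 in WT. The groups did not overlap, but the WT arrays lay far apart, with WT replicate 2 the lower. The log2 difference was 0.72 ± 0.18 (limma, adjusted p = 0.0485), and 0.83 with adjusted p = 0.0352 when leaving out the library labelled GPR43 KO replicate 1. The call was lost without WT replicate 2 (log2 difference 0.44, adjusted p = 0.26), without either GPR41 KO array (0.72 each time, adjusted p = 0.111 and 0.114) and without GPR43 KO replicate 2 (0.60, adjusted p = 0.114).

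Eci2 (chr13:34977748-35027115) had signals of 1373 and 1401 in GPR41 KO, 1382 and 1521 in GPR43 KO, and 2142 and 1944 in WT. Every KO array was below both WT arrays. The log2 difference was -0.52 ± 0.11 (limma, adjusted p = 0.0255). This call was lost whichever single array was left out, with log2 differences from -0.59 to -0.45 and adjusted p between 0.0528 and 0.091. Leaving out the library labelled GPR43 KO replicate 1 gave an adjusted p of 0.0731.

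**Figure D1:**
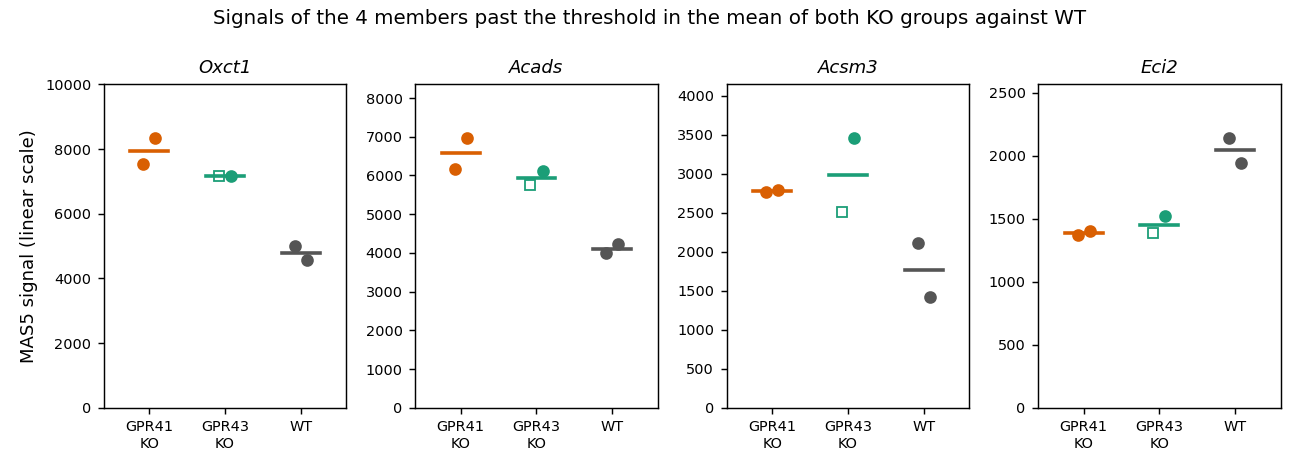
MAS5 signals (linear axis from 0) of Oxct1, Acads, Acsm3 and Eci2 in each array of GPR41 KO, GPR43 KO and WT. Points are arrays, the open square is the library labelled GPR43 KO replicate 1 and bars are group means of 2 arrays. The KO arrays of Oxct1, Acads and Acsm3 lie above both WT arrays and those of Eci2 lie below.

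Against WT alone, GPR41 KO had 3 called members of 30, where 4.96% of all genes were called (1.85% higher, 3.11% lower). Oxct1 was higher by 0.73 ± 0.12 on the log2 scale (adjusted p = 0.00955) and Acads by 0.67 ± 0.12 (adjusted p = 0.0145). Eci2 was lower, with a log2 difference of -0.55 ± 0.13 (adjusted p = 0.0442). Oxct1 and Acads lost these calls without either GPR41 KO array, at adjusted p between 0.0508 and 0.118. Eci2 lost it without any one array, at adjusted p between 0.0684 and 0.207. Acsm3 did not pass in this comparison (0.68 ± 0.21, adjusted p = 0.114). Without WT replicate 1, however, 2 more members passed: Acsm3 at 0.96 (adjusted p = 0.0142) and Ehhadh at 1.19 (adjusted p = 0.00634). Without WT replicate 2, Acadl passed at -0.66 (adjusted p = 0.0494). The spread shared by the 3 groups also enters this comparison: leaving out the library labelled GPR43 KO replicate 1 left 2 members called, Oxct1 and Acads, against 4.35% of all genes.

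GPR43 KO against WT had 2 called members of 30, both higher, where 3.96% of all genes were called (1.55% higher, 2.41% lower). They were Oxct1 at 0.58 ± 0.12 (adjusted p = 0.0308) and Acads at 0.53 ± 0.12 (adjusted p = 0.0473) on the log2 scale. Acsm3 stood at 0.76 ± 0.21 (adjusted p = 0.0839) and Eci2 at -0.49 ± 0.13 (adjusted p = 0.0732), neither past the threshold. Leaving out the library labelled GPR43 KO replicate 1, limma called 0 of 30 members and 2.03% of all genes, with 5 members at an unadjusted p under 0.05 against 15.1% of all genes. Oxct1 then stood at 0.59 (adjusted p = 0.135) and Acads at 0.57 (adjusted p = 0.143). Acads lost its call without any one array, with values from 0.48 to 0.57 and adjusted p between 0.0753 and 0.253. Oxct1 kept its call only without WT replicate 1, and its adjusted p was between 0.0563 and 0.177 without any one of the other arrays. Without WT replicate 1, Acsm3 passed at 1.05 (adjusted p = 0.011) and Ehhadh at 1.01 (adjusted p = 0.0167). Both KO groups are set against the same WT arrays, so a WT array that stands apart enters both comparisons.

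The upstream sequences of these 4 genes are shown because they are the members called in the mean of both KO groups. They are from RefSeq on GRCm38.p6 and hold the 250 bases before the annotated start, 5′ to 3′ on the strand of the gene, with CpG dinucleotides in capitals. They lie at chr15:4026178-4026427 (+) for Oxct1, chr5:115119347-115119596 (-) for Acads, chr7:119760673-119760922 (+) for Acsm3 and chr13:34994145-34994394 (-) for Eci2. The end of the Acsm3 window and the whole Eci2 window lie inside the annotated span of the gene.
Oxct1: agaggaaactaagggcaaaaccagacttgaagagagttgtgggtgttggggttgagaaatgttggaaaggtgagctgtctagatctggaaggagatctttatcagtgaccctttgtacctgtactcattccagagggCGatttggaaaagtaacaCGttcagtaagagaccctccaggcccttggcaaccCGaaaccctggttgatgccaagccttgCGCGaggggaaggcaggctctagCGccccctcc
Acads: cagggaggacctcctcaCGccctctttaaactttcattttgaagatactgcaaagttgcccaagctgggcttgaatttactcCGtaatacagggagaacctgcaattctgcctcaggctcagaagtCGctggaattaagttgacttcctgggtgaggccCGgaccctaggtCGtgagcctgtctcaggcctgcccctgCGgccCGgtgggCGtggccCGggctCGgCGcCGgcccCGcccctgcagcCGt
Acsm3: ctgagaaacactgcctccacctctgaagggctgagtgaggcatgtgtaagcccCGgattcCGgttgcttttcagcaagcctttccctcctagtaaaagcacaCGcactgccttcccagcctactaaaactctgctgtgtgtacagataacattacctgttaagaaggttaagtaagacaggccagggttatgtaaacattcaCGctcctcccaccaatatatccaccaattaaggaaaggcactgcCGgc
Eci2: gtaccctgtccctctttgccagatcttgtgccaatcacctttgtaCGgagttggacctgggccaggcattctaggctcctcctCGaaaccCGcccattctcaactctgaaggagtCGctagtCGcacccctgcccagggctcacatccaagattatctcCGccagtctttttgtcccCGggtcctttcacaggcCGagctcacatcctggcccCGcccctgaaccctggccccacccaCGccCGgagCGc
Acads held 14 CpG dinucleotides and 60.4% GC, Eci2 12 and 61.2%, Oxct1 6 and 52.0%, and Acsm3 5 and 49.2%. The 3 genes that rose thus did not share one base composition.

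Motifs were counted on both strands in windows from 250 bases before to 50 bases after the start, for 29 windows of 27 member genes and 32851 windows of all genes. The core motif AGGTCA, which nuclear receptors such as PPAR bind, was in 13.8% of the members' windows (Acadm, Acadvl, Cpt1a and Echs1), against 16.3% of all windows. Its direct repeat spaced by 1 base, to which PPAR and RXR bind as a pair, was in none of the 29, against 0.0396% of all. TCAAGGTCA, the element of the ERR receptors that contains AGGTCA, was in none, against 0.423% of all. Only exact matches were counted, and at shares this low 29 windows of any genes would mostly hold none. Neither absence therefore sets the members apart. GCGCNTGCG, the element of NRF1, was in 13.8% (Acadm, Etfb, Etfdh and Ppara), against 6.31% of all. None of these motifs was in the windows of Oxct1, Acads, Acsm3 or Eci2. The upstream 250 bases held a median of 12 CpG dinucleotides in the 29 windows of members and 6 in all 32851 windows. The members' windows include those of Acsl1, which had no expression value.

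Signals of cell type markers moved between the same groups of arrays. Of all genes, 3.2% rose in the mean of both KO groups. The summed signal of 15 absorptive colonocyte markers was 376343 to 444966 in the KO arrays and 288321 to 314467 in the WT arrays, and 3 of the 15 rose. That of 8 goblet cell markers was 265493 to 376805 in the KO arrays and 201352 to 218506 in the WT arrays, and 2 of the 8 rose. Smooth muscle markers summed to 108356 to 142039 in the KO arrays and 85540 to 96119 in the WT arrays, and 3 of 9 rose. Leaving out the library labelled GPR43 KO replicate 1, called markers numbered 2 of 15 for colonocytes, 1 of 8 for goblet cells and 2 of 9 for smooth muscle. The summed signals of these 3 lists were thus higher in KO than in WT arrays, as were Oxct1, Acads and Acsm3. Among the KO arrays they did not run together. The library labelled GPR43 KO replicate 1 had the highest sum of each list and the lowest KO signal of each of these genes.

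White blood cell markers lay the other way. Of all genes, 3.79% fell in the mean of both KO groups. The summed signal of 13 neutrophil markers was 1155 to 3324 in the KO arrays and 75837 to 137826 in the WT arrays. All 7 that passed the filter fell, and up to 3 of the 13 were at or under the pseudocount in a KO array against 0 in WT. The filter uses the mean over all arrays, so a marker high in WT alone can pass it. The share that fell among those that passed is therefore no separate evidence. Macrophage markers summed to 12439 to 18090 in the KO arrays and 26674 to 40435 in the WT arrays, and 5 of 10 fell. Both counts were the same without the library labelled GPR43 KO replicate 1. The part of these shifts in the results on the members was not tested. In whole tissue, fewer cells of a type and less RNA per cell cannot be told apart.

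Markers of other cell types with active fat metabolism were also measured, where 3.2% of all genes rose and 3.79% fell. Striated muscle markers summed to 1456 to 1997 in the KO arrays and 1306 to 1390 in the WT arrays, with 2 of 10 tested and neither called by limma, and 1 at an unadjusted p under 0.05, where 22.7% of all genes were. Hepatocyte markers summed to 1470 to 2620 in the KO arrays and 589 to 928 in the WT arrays, with only Ttr of 6 tested, and brown adipocyte markers to 1710 to 2132 in the KO arrays and 764 to 1178 in the WT arrays, with only Cox7a1 of 5 tested. Both of these genes rose, Ttr by a log2 difference of 1.66 and Cox7a1 by 1.19. The other measured markers of both lists, Alb and Ucp1 among them, lay under the filter on weak genes. Mean log2 levels relative to the WT mean overlapped for brown adipocyte markers, at -0.03 to 0.24 in KO and -0.06 to 0.06 in WT. Those of striated muscle markers overlapped too, at -0.13 to 0.16 in KO and -0.05 to 0.05 in WT. For hepatocyte markers they were 0.19 to 0.67 in KO and -0.09 to 0.09 in WT. Adipocyte markers summed to 2560 to 4245 in the KO arrays and 3424 to 4855 in the WT arrays, which overlap. Of 7 tested, Car3 rose and Plin4 and Fabp4 fell. Fibroblast markers held 0 called of 7 by limma, with 2 at an unadjusted p under 0.05, against 22.7% of all genes. The mean log2 level of the 8 measured crypt proliferation markers was -0.20 to -0.08 in KO and -0.05 to 0.05 in WT. Olfm4, under the filter, is among the 8. All 7 tested had log2 differences above 0, and 1 of these 7 rose. Without the library labelled GPR43 KO replicate 1 that count was 0, with 1 at an unadjusted p under 0.05 by limma, and the called counts of striated muscle, hepatocyte, adipocyte, brown adipocyte and fibroblast markers were the same.

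**Figure D2:**
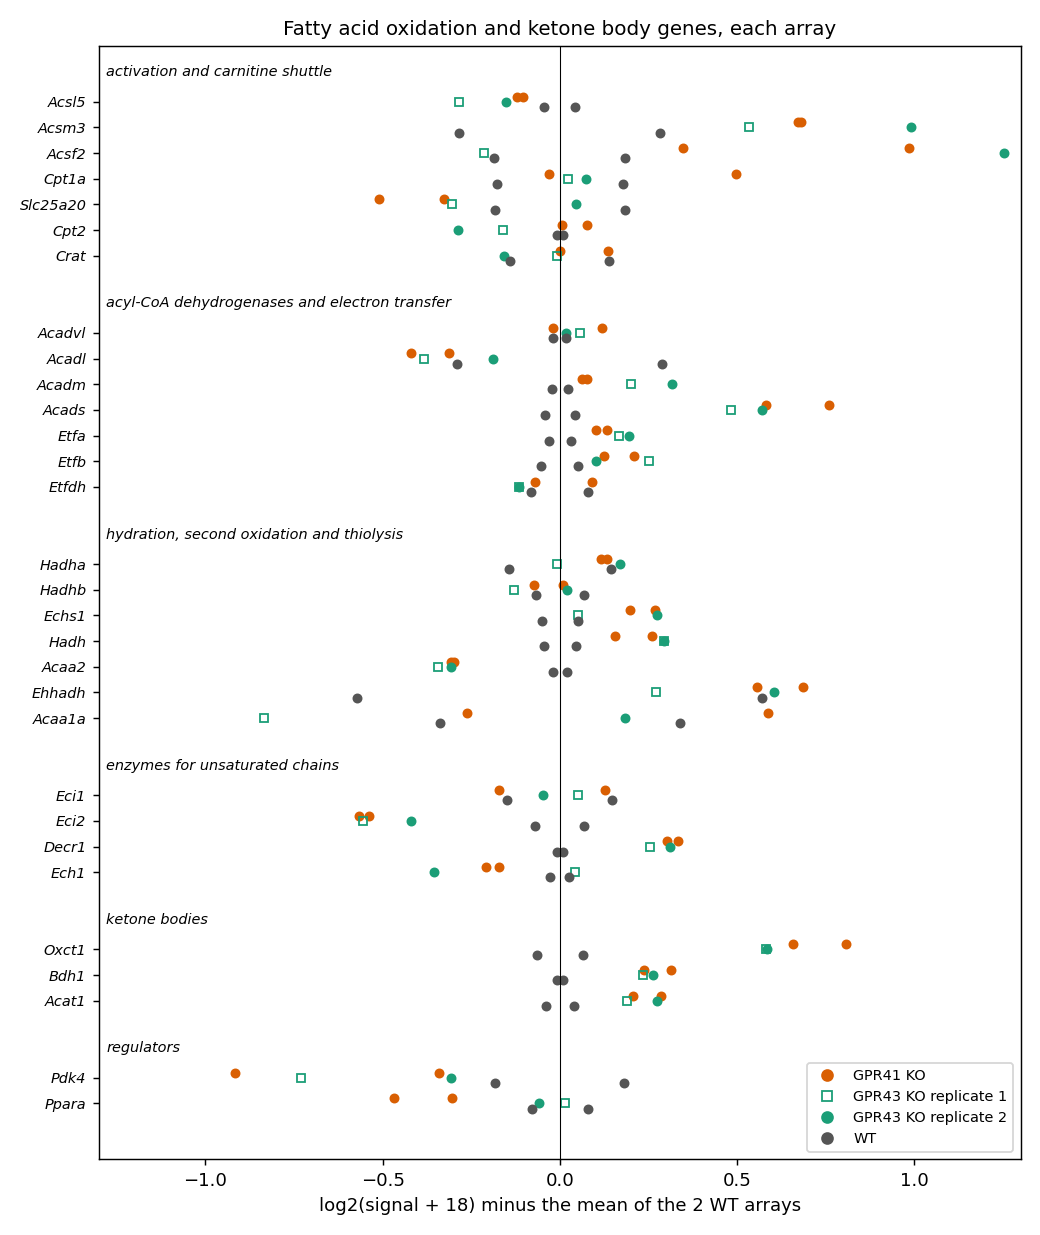
Each array's log2(signal + 18) minus the mean of the 2 WT arrays, for the 30 tested members in the order of their roles. Points are arrays of GPR41 KO (orange), GPR43 KO (green, with an open square for the library labelled replicate 1) and WT (grey). The members spread to both sides of 0, and the WT arrays of Acadl and Ehhadh lie farther apart than their 4 KO arrays.

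Among the ketone body genes, the log2 differences of all 3 members were above 0 in each KO group, and Oxct1 alone passed. Bdh1, which interconverts 3-hydroxybutyrate and acetoacetate, had signals of 6366 and 6035 in GPR41 KO, 6033 and 6144 in GPR43 KO, and 5148 and 5091 in WT. Acat1, the mitochondrial acetoacetyl-CoA thiolase, had 6697 and 7080 in GPR41 KO, 6629 and 7027 in GPR43 KO, and 5647 and 5967 in WT. For both genes the KO arrays lay above the WT arrays. In the mean of both KO groups the log2 difference of Bdh1 was 0.26 (95% interval 0.05 to 0.48, limma adjusted p = 0.143). That of Acat1 was 0.24 (0.02 to 0.46, adjusted p = 0.19).

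The acyl-CoA dehydrogenases take the first oxidation of each turn, and each of the 4 prefers another chain length. Their values ran in different directions. Acadvl, for very long chains, had 5590 and 5079 in GPR41 KO, 5356 and 5208 in GPR43 KO, and 5214 and 5086 in WT, with a log2 difference of 0.04 (95% interval -0.18 to 0.27) in the mean of both KO groups. Acadl, for long chains, had 4921 and 4562 in GPR41 KO, 4683 and 5366 in GPR43 KO, and 7473 and 5001 in WT. WT replicate 1 was the high array, and GPR43 KO overlapped WT. Acadl did not pass in the mean of both KO groups (-0.33, 95% interval -0.69 to 0.04, adjusted p = 0.269), and it stood at -0.61 with adjusted p = 0.0409 without WT replicate 2. Acadm, for medium chains, had 6149 and 6090 in GPR41 KO, 6707 and 7260 in GPR43 KO, and 5924 and 5737 in WT. All its KO arrays were above WT, by a log2 difference of 0.16 (-0.06 to 0.38). Of the 4, the called one, Acads, is thus the one for the shortest chains.

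Electrons from these enzymes pass through the electron transfer flavoprotein, whose subunits are Etfa and Etfb, to the membrane oxidoreductase Etfdh. Etfa had 8198 and 8376 in GPR41 KO, 8579 and 8750 in GPR43 KO, and 7471 and 7798 in WT. Etfb had 11432 and 10773 in GPR41 KO, 11780 and 10608 in GPR43 KO, and 9539 and 10251 in WT. Both subunits were above WT in every KO array, by log2 differences of 0.15 (-0.07 to 0.37) and 0.17 (-0.07 to 0.41), and neither was called. Etfdh, with 1866 and 2089 in GPR41 KO, 1808 and 1808 in GPR43 KO, and 2072 and 1851 in WT, overlapped between groups (-0.05, 95% interval -0.30 to 0.20).

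Fatty acid activation and the carnitine shuttle had 7 tested members, of which Acsm3 was called. Acsl5, a long-chain acyl-CoA synthetase of the intestine, had 2802 and 2836 in GPR41 KO, 2499 and 2744 in GPR43 KO, and 3146 and 2958 in WT. Its KO arrays all lay below WT, with a log2 difference of -0.17 (-0.40 to 0.06) that was not called. Acsf2, another acyl-CoA synthetase, scattered within each group, with 298 and 474 in GPR41 KO, 196 and 575 in GPR43 KO, and 265 and 201 in WT. Its log2 difference of 0.59 has a 95% interval of -0.27 to 1.45 (limma adjusted p = 0.402). The library labelled GPR43 KO replicate 1 was the lowest of all 6 arrays for Acsf2, and without it the difference was 0.96 (adjusted p = 0.0742).

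For the shuttle itself, the 4 KO arrays overlapped the WT arrays in each gene. Cpt1a, the gate of the shuttle on the outer membrane, had 3781 and 5458 in GPR41 KO, 3920 and 4066 in GPR43 KO, and 4369 and 3409 in WT. Slc25a20, the translocase of the inner membrane, had 4192 and 4759 in GPR41 KO, 4839 and 6174 in GPR43 KO, and 6789 and 5260 in WT. Cpt2, which returns the acyl group to CoA, had 3058 and 2911 in GPR41 KO, 2593 and 2372 in GPR43 KO, and 2917 and 2882 in WT. GPR41 KO lay below WT for Slc25a20, and GPR43 KO lay below WT for Cpt2. The other probe set of Slc25a20 ran differently: GPR41 KO overlapped WT (-0.12) and GPR43 KO lay below it (-0.34). Crat, which forms acetylcarnitine, had 464 to 573 in the KO arrays and 470 to 574 in WT. The log2 differences of these 4 in the mean of both KO groups ran from -0.27 for Slc25a20 to 0.14 for Cpt1a, and the widest interval was that of Cpt1a (-0.23 to 0.51).

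The enzymes of hydration, second oxidation and thiolysis had 7 tested members, none past the threshold with all arrays. In the mean of both KO groups the smallest unadjusted p-values from limma were 0.00907 for Acaa2 and 0.041 for Hadh. Hadha and Hadhb, the subunits of the trifunctional protein for long chains, overlapped between groups: Hadha had 5355 to 6061 in the KO arrays and 4870 to 5944 in WT, and Hadhb 7621 to 8458 in the KO arrays and 7965 to 8741 in WT. Their log2 differences were 0.10 (-0.16 to 0.37) and -0.04 (-0.28 to 0.19). Echs1, the hydratase for short chains, had 6562 and 6248 in GPR41 KO, 5637 and 6589 in GPR43 KO, and 5634 and 5254 in WT. Hadh, the dehydrogenase of the second oxidation for short and medium chains, had 21376 and 22982 in GPR41 KO, 23491 and 23525 in GPR43 KO, and 18585 and 19770 in WT. For Echs1 and Hadh every KO array was above both WT arrays, though for Echs1 the lowest KO array and the highest WT array nearly met. Their log2 differences were 0.20 (-0.05 to 0.44) and 0.25 (0.01 to 0.49, adjusted p = 0.198).

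Acaa2, the mitochondrial thiolase of the cycle, lay below WT instead. It had 4855 and 4888 in GPR41 KO, 4734 and 4855 in GPR43 KO, and 5933 and 6093 in WT, with no overlap and a narrow spread in each group. Its log2 difference of -0.31 (95% interval -0.53 to -0.10) did not pass over all genes (limma adjusted p = 0.0854). The peroxisomal members of these steps, Ehhadh and Acaa1a, varied within groups. Ehhadh, the bifunctional enzyme of peroxisomes, had 956 and 1047 in GPR41 KO, 781 and 988 in GPR43 KO, and 965 and 428 in WT. Its log2 difference turned on the low value of WT replicate 2: it was 0.53 with all arrays (adjusted p = 0.299) and passed at 1.10 without WT replicate 1 (adjusted p = 0.00549), whereas it was -0.04 without WT replicate 2 (adjusted p = 0.956). Acaa1a, the peroxisomal thiolase, had 558 to 1522 in the KO arrays and 794 to 1278 in WT, which overlap. Its lowest array was the library labelled GPR43 KO replicate 1, and its log2 difference was -0.08 with that library and 0.17 without it.

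Of the enzymes for unsaturated chains, Eci2 was called and Decr1 lay the other way. Decr1, the mitochondrial 2,4-dienoyl-CoA reductase, had 5170 and 5286 in GPR41 KO, 5006 and 5202 in GPR43 KO, and 4215 and 4168 in WT. The groups did not overlap, and the log2 difference was 0.30 (0.09 to 0.51, limma adjusted p = 0.101). Eci1, the mitochondrial isomerase related to Eci2, had 2824 to 3483 in the KO arrays and 2873 to 3532 in WT, and its log2 difference was -0.01 (-0.31 to 0.29). Ech1, a dienoyl-CoA isomerase, had 8259 and 8050 in GPR41 KO, 9584 and 7271 in GPR43 KO, and 9127 and 9478 in WT. GPR43 KO overlapped WT for Ech1 through the high value of the library labelled replicate 1, and GPR41 KO and GPR43 KO replicate 2 lay below both WT arrays. The log2 difference in the mean of both KO groups was -0.17 (adjusted p = 0.467), and -0.27 without that library (adjusted p = 0.259). The gene of Ech1 lies 1.99 Mb from Ffar2 on chromosome 7, and the next nearest member, Etfb, lies 12.6 Mb away.

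The regulators Pdk4 and Ppara had log2 differences below 0 in both KO groups and neither was called. Pdk4, the kinase that turns off pyruvate dehydrogenase when fat is burned, had 150 and 233 in GPR41 KO, 173 and 239 in GPR43 KO, and 342 and 262 in WT. All KO arrays were below WT, but its signals were weak: the log2 difference was -0.57 (95% interval -1.14 to -0.01, adjusted p = 0.217). Ppara, the nuclear receptor that turns on many of these genes in liver, had 586 and 659 in GPR41 KO, 826 and 784 in GPR43 KO, and 773 and 864 in WT. GPR41 KO lay below WT (-0.39, adjusted p = 0.203) and GPR43 KO overlapped it (-0.02, adjusted p = 0.959). Of the other probe sets of Ppara, one also had GPR41 KO below WT (-0.40) and another overlapped (0.23).

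Counted without a threshold, 11 members lay higher and 4 lower in all 4 KO arrays than in both WT arrays, where 17.1% and 15.2% of all genes did. In GPR41 KO the counts were 12 higher and 8 lower (24.6% and 25.3% of all genes), and in GPR43 KO 11 higher and 6 lower (27.7% and 22.9%). Without the library labelled GPR43 KO replicate 1 they were 14 higher and 8 lower in GPR43 KO, where 39.4% and 35.3% of all genes did not overlap, and 12 higher and 5 lower in the mean of both KO groups, against 20% and 19.2%. The WT arrays were themselves unlike each other, with 20 of 30 members above the WT mean in replicate 1 and 10 in replicate 2.

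Of the 30 members, 15 had more than 1 probe set with their symbol alone. For Oxct1 a further strong probe set had 4614 and 4375 in GPR41 KO, 5169 and 4430 in GPR43 KO, and 2543 and 2734 in WT. It separated KO from WT as well, with a log2 difference of 0.81, whereas 2 weak probe sets of Oxct1 overlapped between groups at 0.27 and 0.24. A second probe set of Bdh1 also lay above WT in all KO arrays, at 0.65 against 0.26 for the one used, and one of Hadh at 0.35 against 0.25. A further, weak probe set of Hadh overlapped between groups at -0.40, and a weak second one of Decr1 at 0.16 against 0.30. For Acat1 the other probe sets overlapped, at 0.01 and 0.06 against 0.24. For Acaa2 the other probe sets stood at -0.19 and -0.29 with overlap. Acads, Acsm3 and Eci2 had 1 probe set each. A pair of probe sets shared by Acaa1a and Acaa1b were not assigned to either gene, and they stood higher in every KO array, at 0.25 and 0.32.

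**Figure D3:**
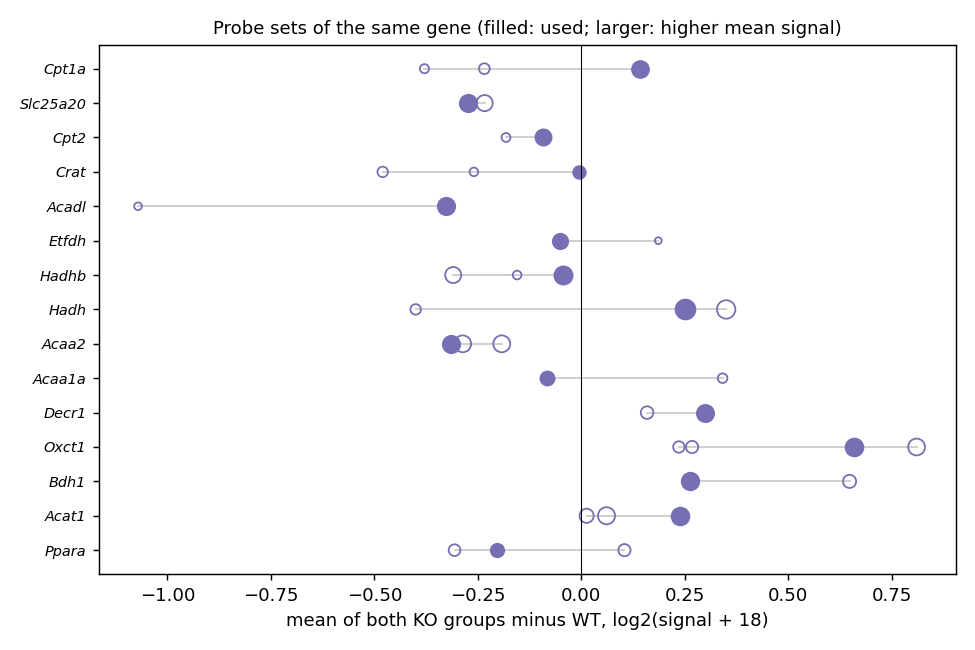
Log2 difference on the log2(signal + 18) scale between the mean of both KO groups and WT for each probe set of the 15 members with more than 1. Filled points are the probe sets used, and larger points have a higher mean signal. The 2 strong probe sets of Oxct1 stand at 0.66 and 0.81, and the widest gaps lie at weak probe sets such as that of Acadl at -1.07.

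GPR43 KO against GPR41 KO asks whether the loss of one receptor differs from the loss of the other in these genes. Limma called 0 of 30 members and 0% of all genes in this comparison. Leaving out the library labelled GPR43 KO replicate 1 it also called 0 members, against 0.0183% of all genes. Ppara at 0.36 (95% interval 0.02 to 0.71) and Cpt2 at -0.26 (-0.53 to 0.00) were the 2 members at an unadjusted p under 0.05, against 5.46% of all genes, and both had adjusted p = 0.87. The other probe sets of Ppara overlapped between the KO groups, at -0.24 and 0.19, and a weak one of Cpt2 was lower at -0.79. Oxct1 stood at -0.15 and Acads at -0.14, with GPR43 KO below GPR41 KO in all arrays for both. The other strong probe set of Oxct1, however, stood at 0.09 with overlap. In all, 5 members lay higher and 7 lower in GPR43 KO without overlap, against 23.1% and 14.8% of all genes. Without the library labelled GPR43 KO replicate 1 the counts were 13 and 9, against 38.5% and 30.7%. With 2 arrays a group these values do not show that both losses act alike.

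Neighbouring pathways were described from lists of genes outside the 31. Their counts stand beside 3.2% of all genes called higher and 3.79% called lower in the mean of both KO groups. Aacs, which activates acetoacetate in the cytosol, was the 1 tested gene of 7 listed for ketone bodies. It had 2235 and 1653 in GPR41 KO, 1475 and 1765 in GPR43 KO, and 1252 and 748 in WT. It rose in the mean of both KO groups (0.85 ± 0.21, limma adjusted p = 0.0472) and lost the call without any array but WT replicate 1. Of 2 tested genes of short- and medium-chain activation, Acss1, the mitochondrial acetyl-CoA synthetase, rose (0.59, adjusted p = 0.0426). Of 23 further mitochondrial fatty acid oxidation genes 1 rose, Dbi, the acyl-CoA binding protein (0.45, adjusted p = 0.0492), and of 15 peroxisomal genes limma called 0, with 4 at an unadjusted p under 0.05, where 22.7% of all genes were. Acss1 and Dbi also kept their calls only without WT replicate 1. Without the library labelled GPR43 KO replicate 1, Acot2, a mitochondrial acyl-CoA thioesterase among the 23, passed at -0.71 (adjusted p = 0.0352), against -0.57 (adjusted p = 0.0877) with all arrays.

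Branched-chain and propionate breakdown joins the citric acid cycle at succinyl-CoA. The share of all genes called higher in the mean of both KO groups was 3.2%. Of its 13 genes 2 rose, Pcca (0.67, adjusted p = 0.0276), a subunit of propionyl-CoA carboxylase, and Mmaa (0.63, adjusted p = 0.035), which serves the cobalamin-dependent mutase. Pcca kept its call only without WT replicate 1, and Mmaa lost its call without any one array. Of 18 citric acid cycle genes 1 rose, Pcx, pyruvate carboxylase (0.64, adjusted p = 0.0214), which lost the call without WT replicate 2, either GPR41 KO array or GPR43 KO replicate 2. Of 25 respiratory chain genes limma called 0, with 13 at an unadjusted p under 0.05, against 22.7% of all genes, and all 25 log2 differences above 0, against 5634 of 10916. Without the library labelled GPR43 KO replicate 1, 4 of the 25 were at an unadjusted p under 0.05, against 19.8% of all genes, and all 25 were still above 0. The medians of these lists were 0.30, 0.25 and 0.24, against 0.07 for the members and 0.01 for all genes. Of 12 genes of pyruvate dehydrogenase and its control 1 rose, Pdp2, a phosphatase that turns the complex on (1.06, adjusted p = 0.00859), and it kept the call whichever array was left out.

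Among 15 tested PPAR regulators and partners, 3 rose, where 3.2% of all genes did. Hnf4a, a nuclear receptor of epithelial cells, rose by 0.69 (adjusted p = 0.0107) and kept the call whichever array was left out. Ppard rose by 0.73 (adjusted p = 0.0169), with the call lost without GPR41 KO replicate 2, and Pparg by 0.56 (adjusted p = 0.0191), with the call lost without either WT array, GPR41 KO replicate 2 or GPR43 KO replicate 1. Ppard and Pparg are of the same receptor family as Ppara, which did not pass.

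Of 12 tested PPAR targets outside the 31, 1 rose and 3 fell, where 3.2% and 3.79% of all genes did. Angptl4, an inhibitor of lipoprotein lipase, had 393 and 219 in GPR41 KO, 397 and 260 in GPR43 KO, and 1457 and 2231 in WT. It fell by 2.48 on the log2 scale (adjusted p = 0.00124). Cyp4b1, a cytochrome P450, fell by 1.03 (adjusted p = 0.00101), and both kept their calls whichever array was left out. Acot1, an acyl-CoA thioesterase, had a log2 difference of -1.26 (adjusted p = 0.043), and only without WT replicate 2 did it keep the call. Fabp2, the intestinal fatty acid binding protein, rose by 0.75 (adjusted p = 0.0158) and lost the call without WT replicate 2, GPR41 KO replicate 1 or GPR43 KO replicate 1.

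**Figure D4:**
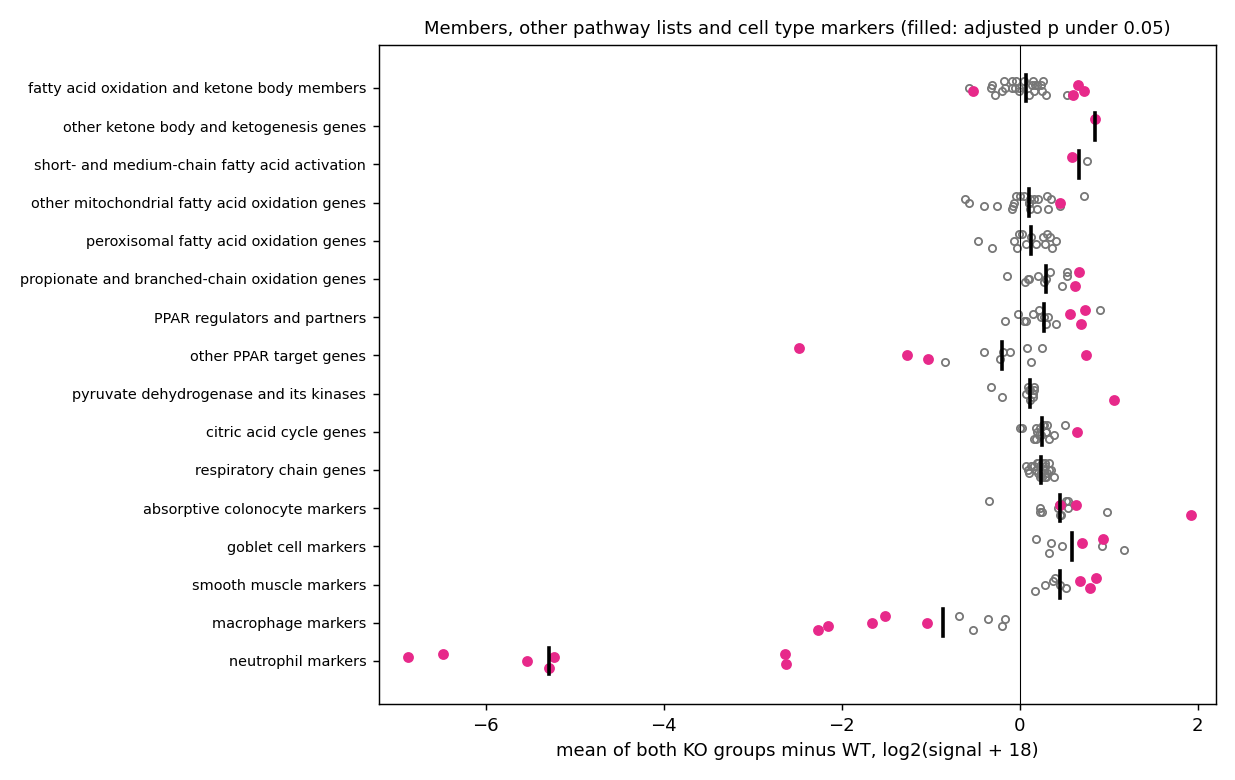
Log2 difference between the mean of both KO groups and WT, on the log2(signal + 18) scale, for each tested gene of the members, of 10 other pathway lists and of 5 cell type marker lists. Filled points have an adjusted p under 0.05 and bars are medians of a list. The members centre at 0.07, the citric acid cycle and respiratory chain lists at 0.25 and 0.24, and the neutrophil markers at -5.29. The filter can pass neutrophil markers that are high in WT alone.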

How the data were processed

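Total RNA of mouse colon was hybridised to 1 Affymetrix array per sample. Each deposited value is the intensity of a probe set, computed by the authors with MAS5 per the submitters' processing notes (version not given in the sources used here), on a linear scale and scaled between arrays: without the lowest and highest 2% of probe sets the mean was 500.0 in every array. Of 45101 probe sets, 34945 carried 1 gene symbol, 932 several and 9160 none, and 64 were controls. Per gene, the probe set with the highest mean log2 over the 6 arrays was kept. Before log2, 18 was added to each value as a pseudocount (the 20th percentile of the whole table), which draws weak signals together. Genes above the 40th percentile of mean log2 were tested, which favours genes high in 1 group; all 30 measured members passed.

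In R 4.3.3, limma 3.58.1 (lmFit, eBayes with intensity trend) fitted 3 group means to the 6 arrays. Residual degrees of freedom were 3 per gene, and 8.71 in all after eBayes. Tests were two-sided with Benjamini-Hochberg adjustment over 10916 genes and a threshold of 0.05. Called means past it. Members, 10 pathway lists and 11 marker lists were chosen with earlier results of these data known. All members may be named, and of each other pathway list up to 4 called genes with the smallest p. Alternatives covered the pseudocount, scaling, filter, probe set rule, intensity trend, arrays fitted, replicate block and each array left out. Sequences and gene positions are from RefSeq, GRCm38.p6.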

Additional observations from a re-analysis of the deposited data

How the results depend on the processing

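Fewer members were called under several settings, and 2 arrays per group limit every count. In GPR41 KO against WT, 3 members were called, 1 with the mean over probe sets, 1 with no intensity trend, and 0 to 4 with 1 array left out. In GPR43 KO against WT, 2 were called, 1 with quantile normalization, no filter on weak genes or the filter at the 60th percentile, and 0 with median centring, the mean over probe sets, no intensity trend, only the arrays compared or the replicate block. That count was 0 to 3 with 1 array left out. In the mean of both KO groups, 4 were called, 2 with the mean over probe sets, no intensity trend or the replicate block, and 2 to 4 with 1 array left out. GPR43 KO against GPR41 KO kept 0 members by limma under all alternatives run. Without WT replicate 2 the median log2 difference of the members in the mean of both KO groups was -0.01, against 0.07 with all arrays.

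Oxct1 lost its call in the mean of both KO groups only under the mean over its 4 probe sets (log2 difference 0.49, adjusted p = 0.284), which gives 2 weak ones equal weight, and Acads kept it under all 10 alternatives that use all arrays, Eci2 under 7 and Acsm3 under 4. The cause of these lost calls, that of Oxct1 included, was not tested. Of 2002 recomputed member values, 0 called ones turned sign, and of 1853 uncalled ones 97 turned sign and 7 became called. The labels do not say whether replicate numbers pair the arrays. Deviations from group means correlated at 0.107 between GPR41 KO and WT. The values were -0.271 between GPR43 KO and WT and -0.0537 between GPR43 KO and GPR41 KO. A positive correlation was thus not seen in every pair of groups. With the replicate block, called members numbered 2 in GPR41 KO, 0 in GPR43 KO and 2 in the mean of both.

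Over all genes, 541 were called in GPR41 KO, 432 in GPR43 KO and 763 in the mean of both, and 360, 217 and 485 with no intensity trend. With 1 array left out these counts ranged over 195 to 892, 129 to 761 and 355 to 1009. Median centring gave 652 calls in GPR41 KO, 314 of them higher, against 202 of 541.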
